A study of Mus musculus with 15 samples.

Results

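Small RNA left in the culture supernatant of TUBO cells after exosome isolation was compared with the small RNA of the TUBO cells themselves, in 3 supernatant and 3 cell libraries out of 15 libraries in the series. TUBO is a mouse mammary tumour line taken from primary tumours of BALB-NeuT mice, which carry an activated rat Her2 (Neu) transgene; it is a single line, so the comparison is between fractions of the same culture system and not between tumours. Supernatant and cells came from cultures in DMEM with 10% FCS, and RNA was extracted with TRIzol; the labels name no treatment. The exosomes of the same line, with 3 libraries, entered the model fit and are named only where they show how the supernatant differs from the other secreted fraction. The study's stated purpose was to look for miRNAs that regulate the progesterone receptor in Her2-expressing lines and in the particles those lines secrete. Inserts of 18 to 26 bases were assigned to mouse hairpin arms by an exact match of their first 18 bases, and their deposited read counts were summed per mature miRNA. Reads fell on 693 miRNAs in the 9 TUBO-derived libraries, of which 398 had reads in supernatant and 550 in cells, and 243 passed the filter on low counts and were tested.

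miRNAs are short RNAs that Argonaute proteins hold and that guide the silencing of mRNAs through their seed, bases 2 to 8. Cells also release them, inside vesicles such as exosomes or outside vesicles, bound to Argonaute proteins or lipoproteins. What stays in a supernatant once vesicles have been removed is therefore commonly read as the non-vesicular fraction, although the isolation method sets what is left. A 5p and a 3p arm are cut from each precursor, and usually a single arm is kept in Argonaute while the other, the star strand, is degraded.

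The supernatant libraries were shallower than the cell libraries. They held 228034, 196152 and 273567 reads, against 653871, 525422 and 710902 reads in cells. miRNAs took 33.2%, 30.0% and 28.1% of those reads in supernatant, and 76.5%, 76.1% and 75.5% in cells. The means were 30.4% ± 2.54 and 76.0% ± 0.492 (SD, n = 3 each), with no overlap, and an exact two-sided permutation test gave p = 0.1, the smallest that 3 libraries against 3 allow. All levels below are CPM, read counts scaled to the same miRNA total in every library, so they describe the makeup of the miRNA pool and not amounts per cell or per millilitre. Fewer molecules released and less RNA recovered per sample cannot be told apart in such values. Supernatant replicate 3 stood apart from the other supernatant libraries: its counts differed from those of replicates 1 and 2 by a chi-square per degree of freedom of 38.3 and 35.5, against 5.09 between replicates 1 and 2 and 5.29 to 7 between cell libraries. Counts of list members that change without it are given with that value. The sources do not say whether replicates are separate cultures, so p-values measure the spread between these libraries, which may be technical.

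The label of a mammary epithelial tumour line was set against 7 epithelial miRNAs (the miR-200 family with miR-141 and miR-429, miR-203 and miR-205). All 7 were detected in cells and in supernatant, and they made up 2.61% ± 0.0719 of miRNA reads in cells (SD, n = 3). Among 8 stromal markers miR-143-3p was high, with 46951, 46885 and 47043 CPM in cells. Over the 3 cell libraries miR-145a-5p had 239 reads, the joint miR-199a-3p and miR-199b-3p 154, miR-10b-5p 19, miR-127-3p 6, miR-199a-5p 3, miR-199b-5p 1 and miR-214-3p 0. Of 13 miRNAs listed for blood, endothelium, liver and serum, miR-16-5p (6396 reads), miR-15a-5p (465) and miR-486-5p (201) were detected over the cell libraries. miR-122-5p had 8 reads, miR-142a-5p 1, and the other 8 had 0. Most of the list's reads in cells were miR-16-5p, so the list's total there is not a measure of blood or serum.

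Most of the miRNA pool differed between supernatant and cells. In edgeR's quasi-likelihood test with Benjamini-Hochberg adjustment over the 243 miRNAs, 83 (34.2%) were higher in supernatant and 94 (38.7%) lower, at an adjusted p under 0.05, which makes 177 (72.8%) in all. The libraries of the 2 groups did not overlap for 180 miRNAs (74.1%). The 243 include miRNAs that passed the filter only through the exosome libraries, such as miR-144-5p with 0 reads in supernatant and in cells. With the 6 supernatant and cell libraries fitted alone, 166 of 210 tested were called, a larger share, with 80 higher and 86 lower. With so high a background a call on a single miRNA says little by itself, and the sizes carry more than the calls. The median log2 fold change over all tested miRNAs was −0.16. Without supernatant replicate 3, 97 were higher and 83 lower of 261 tested. Scaling to all reads of a library, in place of miRNA reads, moved the median to −1.69 and left 39 higher and 145 lower. Direction below therefore means direction relative to the miRNA reads. Fold changes also carry edgeR's TMM scaling factors (0.954, 1.015 and 0.709 in supernatant, 1.028, 1.036 and 1.01 in cells). On average these place fold changes above the ratios of CPM. With no scaling factors the median was −0.379, with 78 higher and 101 lower.

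**Figure D1:**
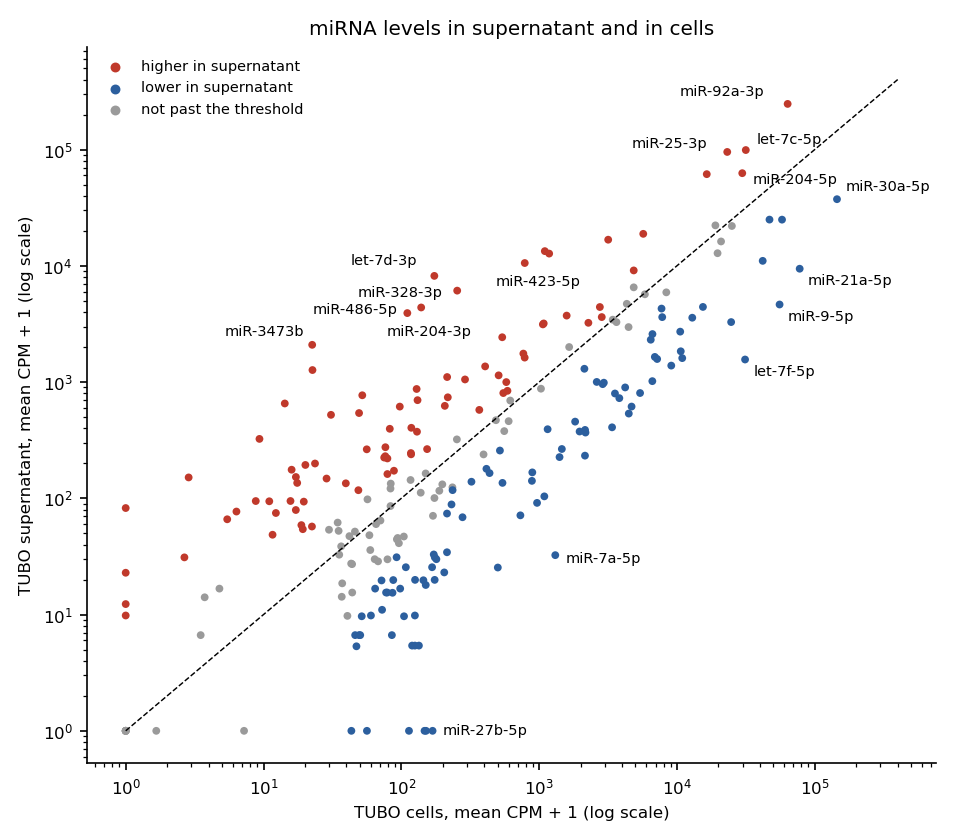
Mean CPM + 1 of the 243 tested miRNAs in TUBO supernatant (vertical, log scale) against TUBO cells (horizontal, log scale), 3 libraries each, coloured by call, with the dashed line at equal levels. miR-92a-3p, at a mean of 246980 CPM in supernatant and 63600 CPM in cells, lies above the line, while miR-21a-5p, miR-9-5p and let-7f-5p lie below it.

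The supernatant pool was led by miR-92a-3p, let-7c-5p, miR-25-3p, miR-204-5p and let-7b-5p, each higher than in cells, while miR-30a-5p, which led the cell pool, was lower in supernatant, as were miR-9-5p and miR-21a-5p. The mature sequences of these and of the family members described with them are printed first, as RefSeq gives them for GRCm38.p6, with the seed in capitals. They are shown because members that share a seed parted ways. The 4 tested miRNAs with the seed AUUGCAC were these:

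miR-92a-3p: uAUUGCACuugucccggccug
miR-92b-3p: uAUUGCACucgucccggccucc
miR-25-3p: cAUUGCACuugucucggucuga
miR-32-5p: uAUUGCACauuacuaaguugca

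Other leading miRNAs of either pool had unrelated seeds:

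miR-204-5p: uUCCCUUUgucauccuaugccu
miR-30a-5p: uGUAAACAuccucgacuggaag
miR-21a-5p: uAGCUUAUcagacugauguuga
miR-9-5p: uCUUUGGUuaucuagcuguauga
miR-7a-5p: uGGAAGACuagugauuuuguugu

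miR-92a-3p, a member of the oncogenic miR-17-92 cluster, is cut from 2 hairpins, at chr14:115044427-115044506 (Mir92-1, plus strand) and chrX:52741838-52741928 (Mir92-2, minus strand) of GRCm38. It had 253300, 241380 and 246250 CPM in supernatant, against 65097, 60421 and 65282 CPM in cells. The 3 supernatant libraries were all above the cell libraries, and the log2 fold change was 2.19 ± 0.23 (SE), adjusted p = 3.34e-07. miR-25-3p, from the related miR-106b-25 cluster at chr5:138165321-138165404 (Mir25, minus strand), had 75435, 81914 and 128760 CPM in supernatant, against 21904, 25244 and 22393 CPM in cells. Supernatant replicate 3 was the highest, and the log2 fold change was 2.33 ± 0.30, adjusted p = 3.17e-06. miR-92b-3p had 11746, 10960 and 17410 CPM in supernatant, against 1136, 1063 and 1099 CPM in cells. No library overlapped, and its log2 fold change of 3.89 ± 0.31 (adjusted p = 2.04e-08) was the largest of the seed family. The exception was miR-32-5p, with 1 read in supernatant and 70 reads in cells, a ratio of 10.3 in favour of cells (95% interval from counting 1.79 to 413), and its call was lost without supernatant replicate 1 or 3. Together the members of this seed family took 35.6% ± 3.19 of miRNA reads in supernatant and 8.79% ± 0.105 in cells (SD, n = 3 each). In exosomes they took 7.74% ± 1.45, and against exosomes miR-92a-3p was higher in supernatant by 3.16 on the log2 scale.

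The other tested members of the miR-17-92 and miR-106b-25 lists moved the other way from miR-92a-3p and miR-25-3p, with which they share a primary transcript. Of the 6 tested miRNAs of the miR-17-92 list, miR-92a-3p was higher and the other 5 (miR-17-5p, miR-18a-5p, miR-19a-3p, miR-19b-3p and miR-20a-5p) were lower, with a list median of −2.37, and the count was the same under each other scaling. It was 4 lower without supernatant replicate 2 or 3 or without cell replicate 1 or 3, with the replicate block and with no low-count filter. miR-17-5p had 185, 119 and 117 CPM in supernatant, against 916, 898 and 844 CPM in cells, a log2 fold change of −2.43 ± 0.27 (adjusted p = 6.26e-07). miR-18a-5p had 0 reads in supernatant, against 210 reads in cells, so it was at least 10.3-fold lower in supernatant with a floor of 3 reads over the group. miR-19b-3p had 1270, 1256 and 169 CPM in supernatant, with replicate 3 lowest, against 4698, 3475 and 4457 CPM in cells, a change of −2.12 ± 0.62 (adjusted p = 0.0109). In the miR-106b-25 cluster miR-106b-5p was lower (79.4, 119 and 13.0 CPM in supernatant, against 806, 685 and 700 CPM in cells), as was miR-93-5p (3241, 2867 and 1651 CPM in supernatant, against 6506, 6443 and 6981 CPM in cells). Their log2 fold changes were −3.25 ± 0.36 and −1.18 ± 0.20, beside 2.33 for miR-25-3p of the same cluster. The other arm of Mir106b, miR-106b-3p, is not on that list and was higher in supernatant, at 1.85. miRNAs cut from the same primary transcript thus differed in direction within the supernatant pool.

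The let-7 family, differentiation-linked miRNAs with tumour-suppressor roles, split into 2 members that were higher in supernatant and 7 that were lower. The 9 mature sequences share the seed GAGGUAG. In the lines below, ordered by log2 fold change, the capital marks position 19 counted from the 5′ end, the only position where let-7c-5p and let-7b-5p carry the same base as each other and a different base from every other member. This position was looked for after the values were known.

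let-7b-5p: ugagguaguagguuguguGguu
let-7c-5p: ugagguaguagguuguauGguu
let-7e-5p: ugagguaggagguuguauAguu
let-7d-5p: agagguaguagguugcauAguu
let-7g-5p: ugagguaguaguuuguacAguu
let-7a-5p: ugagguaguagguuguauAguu
let-7i-5p: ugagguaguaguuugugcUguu
miR-98-5p: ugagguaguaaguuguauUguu
let-7f-5p: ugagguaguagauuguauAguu

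let-7c-5p had 107050, 101870 and 88180 CPM in supernatant, against 32986, 31564 and 30262 CPM in cells. let-7b-5p had 68861, 68578 and 46846 CPM in supernatant, against 17310, 15508 and 16566 CPM in cells. Neither overlapped between the groups, and the log2 fold changes were 1.86 ± 0.22 for let-7c-5p (adjusted p = 1.13e-06) and 2.09 ± 0.22 for let-7b-5p (adjusted p = 2.79e-07). When libraries were scaled to all their reads, let-7c-5p kept a positive value of 0.33 but no longer passed the test (adjusted p = 0.187).

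At the other end, let-7f-5p had 1587, 1968 and 1131 CPM in supernatant, against 33146, 30739 and 29791 CPM in cells. The cell libraries were all far above the supernatant ones, and the log2 fold change was −4.14 ± 0.22 (adjusted p = 1.21e-10). let-7i-5p had 3809, 3495 and 2535 CPM in supernatant, against 24047, 25677 and 24509 CPM in cells. let-7a-5p had 1693, 1798 and 1326 CPM in supernatant, against 11676, 10446 and 10662 CPM in cells. Both were lower in supernatant, by −2.72 ± 0.21 and −2.56 ± 0.23 on the log2 scale, and the remaining 4 lower members lay between −3.28 and −2.20. let-7a-5p and let-7c-5p share their first 18 bases, so an insert of 18 bases cannot tell them apart; inserts of 20 bases or fewer were 3.39% ± 0.579 of let-7c-5p reads in supernatant and 2.27% ± 0.0508 in cells. The split of 2 higher and 7 lower was the same when the whole insert had to match. As a whole the family took 17.0% ± 2.41 of miRNA reads in supernatant and 13.3% ± 0.430 in cells.

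**Figure D2:**
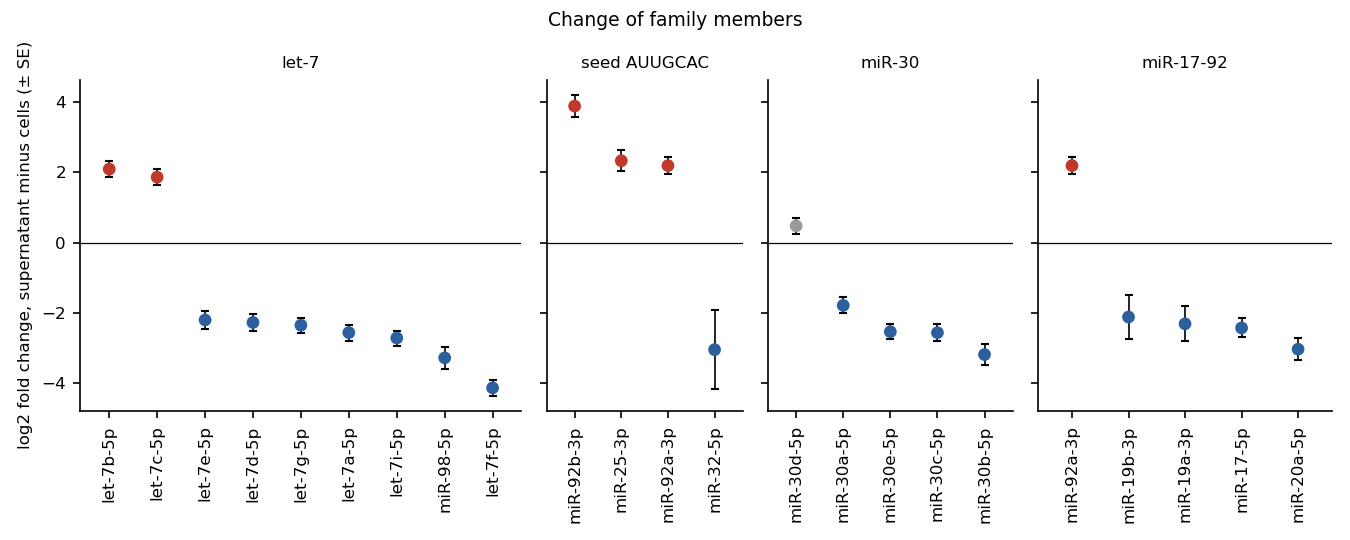
Log2 fold change, supernatant minus cells, with its standard error (bars), for the tested members of 4 miRNA groups with at least 1 read in supernatant, in red where higher, blue where lower and grey where not past the threshold. let-7b-5p and let-7c-5p, miR-92b-3p, miR-25-3p and miR-92a-3p lie above 0 and most of their relatives below −1; miR-32-5p rests on 1 supernatant read.

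Among the other leading miRNAs of supernatant, miR-204-5p had 69919, 49152 and 68820 CPM, against 30219, 29994 and 29169 CPM in cells. It was higher in each supernatant library, by 1.33 ± 0.24 on the log2 scale (adjusted p = 0.00012), but −0.25 with libraries scaled to all reads. The miR-30 family, which is abundant in epithelia, was lower apart from miR-30d-5p. miR-30a-5p, the leading miRNA of cells, had 44232, 45283 and 22715 CPM in supernatant, against 143800, 150560 and 140810 CPM in cells, and its log2 fold change was −1.79 ± 0.22 (adjusted p = 2.13e-06). miR-30b-5p, miR-30c-5p and miR-30e-5p were lower by −3.19, −2.56 and −2.54, and miR-30d-5p stood at 0.48 ± 0.24 (adjusted p = 0.0806), with 21256, 21310 and 24262 CPM in supernatant and 19287, 19186 and 18584 CPM in cells. Without supernatant replicate 1 or 3, 1 member of the family was higher. The family took 6.20% ± 1.17 of miRNA reads in supernatant and 17.97% ± 0.554 in cells.

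miR-21a-5p, an oncogenic miRNA high in many tumours, was lower in supernatant. It had 9920, 12776 and 5617 CPM there, against 79182, 77520 and 76614 CPM in cells. No library overlapped, and the log2 fold change was −2.88 ± 0.24 (adjusted p = 2.04e-08). miR-9-5p, which targets E-cadherin in breast cancer cells, had 5278, 6736 and 1924 CPM in supernatant, against 54261, 56058 and 56403 CPM in cells. Its log2 fold change was −3.45 ± 0.28 (adjusted p = 2.04e-08), and −2.91 without supernatant replicate 3. Exosomes had means of 75713 CPM for miR-21a-5p and 55437 CPM for miR-9-5p, and supernatant minus exosomes stood at −2.72 and −3.33. miR-182-5p and miR-143-3p were lower by −0.90 ± 0.38 and −0.64 ± 0.24 (adjusted p = 0.0454 and 0.0217), and neither call held in every alternative. miR-148a-3p did not pass the test (0.12 ± 0.31, adjusted p = 0.753), with 15859, 18392 and 31764 CPM in supernatant and 23112, 25679 and 26343 CPM in cells.

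The largest rises included star strands and miRNAs that are minor in the cells. let-7d-3p, the star strand of let-7d at chr13:48536012-48536114 (Mirlet7d, minus strand), had 9140, 8653 and 6774 CPM in supernatant, against 216, 133 and 170 CPM in cells. All 3 supernatant libraries were far above the cell libraries, and the log2 fold change was 5.76 ± 0.31 (adjusted p = 1.21e-10). Its 5p partner, let-7d-5p, had 423, 424 and 312 CPM in supernatant, against 2217, 2145 and 2097 CPM in cells. That arm was lower, by −2.27 ± 0.24, so that the arms of this hairpin changed in opposite directions and 3p reads outnumbered 5p reads in supernatant. Their sequences are shown with those of other risers, seeds in capitals:

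let-7d-3p: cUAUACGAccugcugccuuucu
miR-204-3p: gCUGGGAAggcaaagggacgu
miR-423-5p: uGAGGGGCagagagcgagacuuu
miR-125a-3p: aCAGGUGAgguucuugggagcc

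miR-204-3p, the star strand of miR-204-5p, had 4405, 4768 and 2587 CPM in supernatant, against 132, 85.0 and 112 CPM in cells, a log2 fold change of 5.32 ± 0.37 (adjusted p = 4.01e-09). miR-423-5p, a miRNA often measured in plasma, had 11164, 11079 and 9453 CPM in supernatant, against 756, 720 and 881 CPM in cells, a change of 3.96 ± 0.28. miR-328-3p had 6759, 7347 and 4239 CPM in supernatant, against 294, 193 and 274 CPM in cells, a change of 4.77 ± 0.26. None of these overlapped between the groups. miR-125a-3p and miR-8103 rose by 4.33 ± 0.35 and 4.17 ± 0.35, with means of 521 and 769 CPM in supernatant and 29.9 and 51.1 CPM in cells.

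Against exosomes as well, let-7d-3p (5.41), miR-204-3p (5.12), miR-328-3p (5.68) and miR-423-5p (4.76) were higher in supernatant on the log2 scale, in a comparison that shares the supernatant libraries and in which 156 of 243 miRNAs (64.2%) were called, 74 (30.5%) higher and 82 (33.7%) lower. Among the 12 largest rises, 2 did not pass the test against exosomes. miR-486-5p, an erythroid miRNA counted together with the near-identical miR-3107-5p, had 3161, 2918 and 7060 CPM in supernatant, against 148, 120 and 147 CPM in cells. Its change against cells was 5.30 ± 0.62 (adjusted p = 2.35e-05), while against exosomes, with a mean of 14092 CPM, it was −1.27 (adjusted p = 0.0513). miR-5098-3p was 5.40 ± 0.50 above cells and 0.26 above exosomes (adjusted p = 0.548).

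The 2 largest fitted rises were miR-3473b and miR-3470b, whose mature sequences also lie in transcripts of 344 and 546 other genes, so their reads need not come from the named hairpins. miR-3473b had 1561, 3071 and 1638 CPM in supernatant, against 25.99, 27.5 and 11.2 CPM in cells, a log2 fold change of 6.79 ± 0.35. Its reads started at the annotated 5′ base in 37.5% ± 17.7 of cases in supernatant and 86.2% ± 12.2 in cells. miR-3470b had 582, 1544 and 1677 CPM in supernatant, against 22.0, 22.5 and 20.5 CPM in cells, a change of 6.11 ± 0.49, and 1.10% ± 1.90 of its supernatant reads started at the annotated base, against 19.5% ± 2.33 in cells. miR-1934-3p, with 5.72 ± 0.55, had the annotated start in 7.60% ± 3.31 of its reads in supernatant and 11.1% ± 19.2 in cells. miR-3470b-5p had 30 reads in supernatant and 3 reads in cells, a ratio of 68.0 (95% interval from counting 21.1 to 348). In contrast, 93.1% ± 1.68 of let-7d-3p reads and 98.6% ± 0.912 of miR-423-5p reads started at the annotated base in supernatant, against 96.1% ± 1.88 and 97.4% ± 1.23 in cells.

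**Figure D3:**
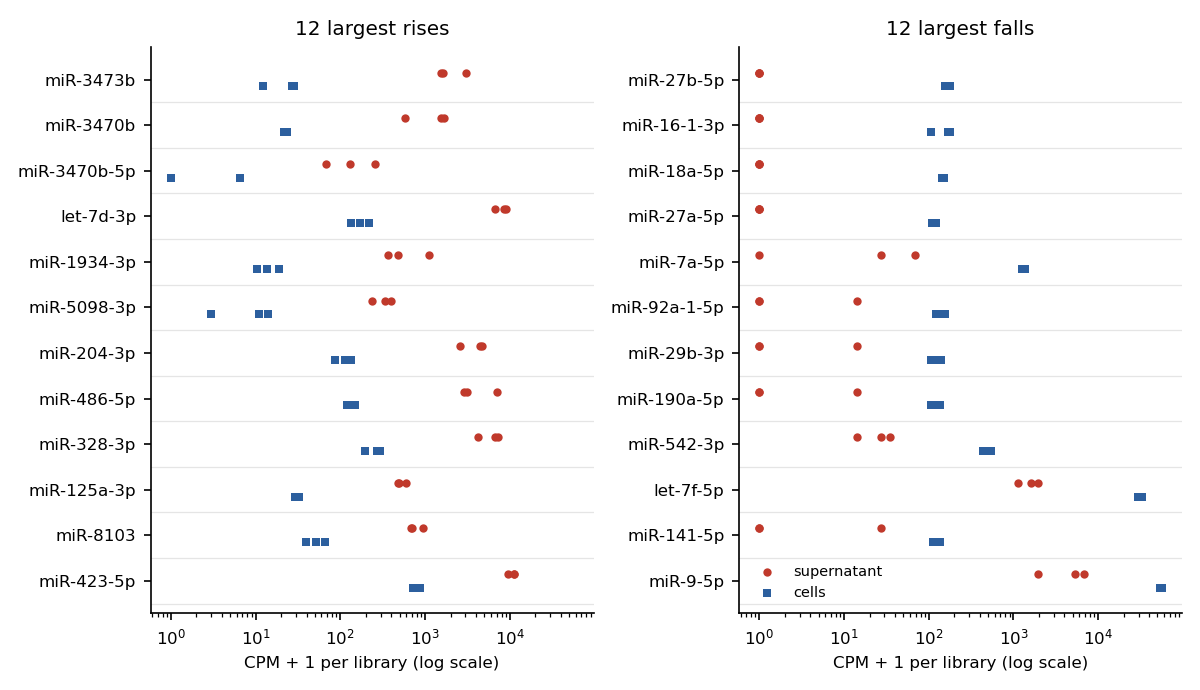
CPM + 1 (log scale) in each of the 3 supernatant libraries (red circles) and 3 cell libraries (blue squares) for the 12 miRNAs that rose most and the 12 that fell most, out of those called without overlap and averaging 100 CPM or more in supernatant or cells; miR-486-5p stands for the joint feature with miR-3107-5p. Points at 1 are libraries with 0 reads, as for miR-27b-5p in all 3 supernatant libraries.

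Among the 12 miRNAs that fell most by the fitted values, 4 had no read in supernatant, so their place in that order is not measured. miR-27b-5p had 0 reads in supernatant and 241 reads in cells, which makes it at least 11.8-fold lower. miR-16-1-3p (0 against 215 reads) and miR-27a-5p (0 against 162 reads) were at least 10.55-fold and 7.95-fold lower in supernatant. These 3 are star strands, and the main arms of their hairpins did not pass the test, at 0.00 for miR-27a-3p, −0.16 for miR-27b-3p and −0.33 for miR-16-5p. These bounds and intervals cover counting error only, because amplified reads that carry no molecular identifier may be copies of the same molecule.

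miR-7a-5p, which targets growth factor signalling, had 26.5, 67.9 and 0 CPM in supernatant, against 1354, 1305 and 1268 CPM in cells. Supernatant replicate 3 was the library with no read, and the log2 fold change of −5.29 ± 0.43 (adjusted p = 2.04e-08) was −4.54 without it and −6.42 without replicate 2. miR-542-3p had 13.2, 33.9 and 26.004 CPM in supernatant, against 544, 433 and 525 CPM in cells, a change of −4.16 ± 0.43. miR-92a-1-5p (1 against 189 reads), miR-29b-3p (1 against 179), miR-190a-5p (1 against 172) and miR-141-5p (2 against 178) were lower in supernatant by ratios of 27.8, 26.3, 25.3 and 13.1. The lower ends of their 95% counting intervals were 4.93, 4.67, 4.48 and 3.57, and their fitted values moved by more than 1.5-fold when either supernatant replicate 1 or 3 was left out. miR-92a-1-5p is the star strand of miR-92a-3p, which was the leading miRNA of supernatant.

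Opposite changes of the arms of a single hairpin were found beyond let-7d. Of 59 hairpins with both arms tested, 31 had both arms past the threshold, and 11 of these had arms called in opposite directions. The rest of the 31, which were the larger part, had both arms called in the same direction. Over all tested miRNAs 34.2% were higher and 38.7% lower, so opposite calls are also frequent between unrelated miRNAs. An excess of opposite calls among the arms of a hairpin was not tested. Hairpins that share a mature arm, such as those of miR-92a-3p, miR-181a-5p and miR-9-5p, are counted separately. Reads of miR-92a-3p can come from Mir92-1 or Mir92-2, and the let-7a-1 3p reads are joint with those of let-7c-2. Opposite arms of a single hairpin are therefore not shown for Mir92-1, Mir181a-2 and let-7a-1. miR-106b-3p had 2685, 2613 and 4278 CPM in supernatant, against 1058, 1115 and 1064 CPM in cells, a log2 fold change of 1.85 ± 0.30 beside −3.25 for miR-106b-5p. miR-200b-5p had 278, 271 and 273 CPM in supernatant, against 78.0, 87.5 and 61.5 CPM in cells, a change of 2.09 ± 0.37 beside −1.29 for miR-200b-3p. miR-181a-2-3p had 1997, 2630 and 4772 CPM in supernatant, against 1100, 1053 and 1039 CPM in cells, 1.87 ± 0.39 beside −1.75 for miR-181a-5p. In 9 of the 11 the higher arm was the richer in G and C, and in the other 2 (miR-98 and let-7a-1) the arms had equal G and C content. Over the list of 27 arms taken as star strands, 20 were tested, of which 5 were higher and 11 lower, with a median of −1.23. Beside these stand 34.2% higher and 38.7% lower over all tested miRNAs. Without supernatant replicate 3 the count was 6 higher and 8 lower, and without replicate 1 it was 5 and 8. The list does not hold every star strand named here: let-7d-3p, miR-27a-5p and miR-27b-5p are outside it. Among its higher members, miR-106b-3p and miR-423-3p were the more abundant arm in cells, so they are not minor arms here. Their means in cells were 1079 and 1584 CPM, against 730 CPM for miR-106b-5p and 786 CPM for miR-423-5p.

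Base composition differed between miRNAs that were higher and lower in supernatant. Across 209 tested miRNAs with a RefSeq mature sequence, the log2 fold change rose with the percentage of G and C (Pearson 0.488, Spearman 0.544). These are correlations across miRNAs that share the same 6 libraries and include families of near-identical sequence, and no p is given. Of the 46 miRNAs with at least 55% G and C, 31 were higher and 2 lower, with a median log2 fold change of 1.71. The lower ones were miR-21a-3p and let-7i-3p. Of the 23 with under 35%, 2 were higher and 16 lower, with a median of −2.31, and the higher ones were miR-98-3p and miR-190b-5p. The classes between stood at 8 higher and 35 lower of 54 (35 to 45%) and 29 higher and 30 lower of 86 (45 to 55%). Beside these counts stand 34.2% higher and 38.7% lower over all 243 tested.

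miRNAs with at least 55% G and C made up 33.5% ± 0.419 of miRNA reads in supernatant and 9.03% ± 0.256 in cells (SD, n = 3 each), while those under 35% made up 0.891% ± 0.391 in supernatant and 10.25% ± 0.158 in cells. Most of both shares at 55% and over was miR-92a-3p (57.1% G and C), with means of 247000 CPM in supernatant and 63600 CPM in cells. Such shares, and the mean content of the reads, are weighted by abundant miRNAs, whereas the counts and correlations give each miRNA equal weight. The mean G and C content of the miRNA reads was 49.6%, 49.7% and 50.0% in the supernatant libraries and 44.4%, 44.5% and 44.5% in the cell libraries, without overlap (exact two-sided permutation p = 0.1). Taken per supernatant library against the mean of cells, on the log2(CPM + 1) scale, Pearson values were 0.463, 0.445 and 0.507. They were 0.558 for supernatant minus exosomes and −0.119 for exosomes minus cells, comparisons that share libraries with each other. Over 152 miRNAs with a mean of at least 100 CPM in either group the value was 0.573. By single base, the share of C gave 0.339, of G 0.105, of A −0.279 and of U −0.265. Composition did not separate all members of a family: let-7c-5p, let-7d-5p, let-7e-5p and let-7i-5p have the same 40.9% G and C, and let-7c-5p was higher in supernatant while the other 3 were lower. Whether ligation, amplification or RNA recovery differed with base composition between these fractions was not tested.

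**Figure D4:**
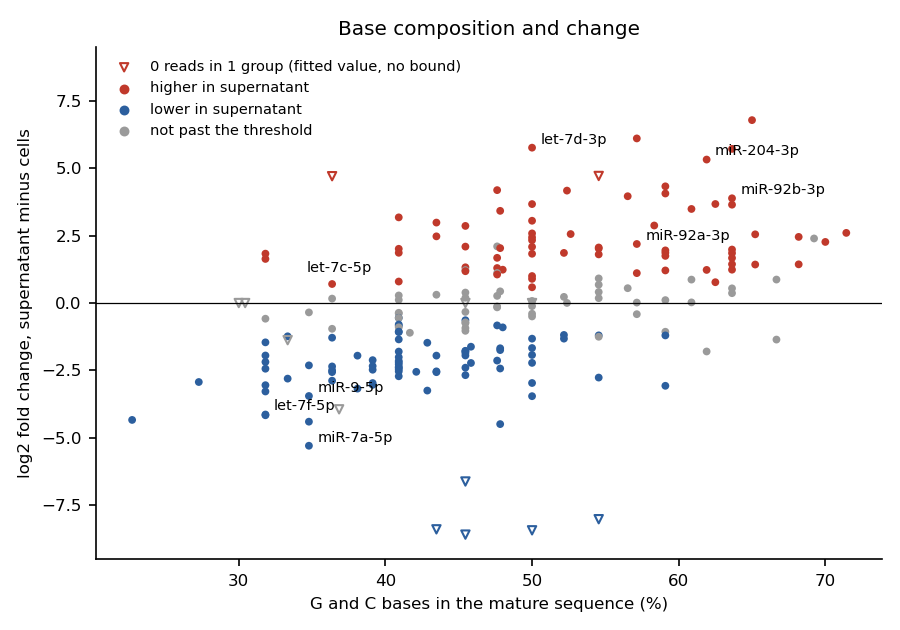
Log2 fold change, supernatant minus cells, against the percentage of G and C in the RefSeq mature sequence for 209 tested miRNAs, coloured by call, with open triangles for miRNAs at 0 reads in at least 1 of the groups, whose fitted values are not bounds. Values rise from left to right with wide scatter (Pearson 0.488).

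The inserts themselves were shorter in supernatant. Over all miRNA reads the mean insert length was 22.0, 21.8 and 21.8 bases in supernatant, against 22.6, 22.6 and 22.6 bases in cells. Inserts of 20 bases or fewer made up 9.09%, 12.2% and 12.8% of miRNA reads in supernatant, and 4.10%, 4.13% and 3.999% in cells. Neither measure overlapped between the groups (exact two-sided permutation p = 0.1 for each). Untemplated A at the 3′ end was found on 1.51% ± 0.0851 of reads in supernatant and 3.01% ± 0.0728 in cells, and untemplated U on 6.44% ± 0.638 and 7.41% ± 0.0411 (SD, n = 3 each, exact p = 0.1 for each). Single miRNAs went the other way in untemplated U: it was on 18.8% ± 5.07 of miR-204-5p reads in supernatant and 8.11% ± 0.256 in cells, and on 0.542% ± 0.239 and 0.199% ± 0.0274 of miR-21a-5p reads (exact p = 0.1 for each). miR-143-3p, a smaller part of the supernatant pool, had it on 48.6% ± 7.17 in supernatant and 50.5% ± 0.510 in cells (exact p = 1), and its part in the pooled value was not tested. The 5′ ends differed little, with the annotated first base on 96.2% ± 0.272 of supernatant reads and 96.6% ± 0.0118 of cell reads.

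The shortening was at the 3′ end and was uneven across miRNAs. For 3 abundant miRNAs the leading insert of supernatant lacked the last bases of the leading insert of cells. The inserts are printed in pairs as sequenced, in DNA letters, with the supernatant's leading insert first and then the cells' leading insert, in which capitals mark the 3′ bases that the shorter insert lacks.

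miR-9-5p leading in supernatant: tctttggttatctagctgtat
miR-9-5p leading in cells: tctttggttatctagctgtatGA
miR-181a-5p leading in supernatant: aacattcaacgctgtcggtga
miR-181a-5p leading in cells: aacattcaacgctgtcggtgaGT
miR-182-5p leading in supernatant: tttggcaatggtagaactcac
miR-182-5p leading in cells: tttggcaatggtagaactcacACCG

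The shorter miR-9-5p insert made up 74.4%, 64.0% and 58.8% of miR-9-5p reads in supernatant, against 22.1%, 20.4% and 21.4% in cells. The longer miR-9-5p insert made up 8.80% ± 1.82 in supernatant and 47.3% ± 1.30 in cells. For miR-182-5p, from the sensory-organ cluster also high in breast tumours, the shorter insert made up 28.5% ± 1.67 in supernatant and 7.09% ± 0.757 in cells, and the longer 3.26% ± 0.874 and 40.7% ± 3.32. For miR-181a-5p the shorter insert made up 25.9% ± 2.35 in supernatant and 6.05% ± 0.146 in cells, and the longer 18.1% ± 2.63 and 32.7% ± 0.806. The mean lengths in supernatant and cells were 20.7 and 22.3 bases for miR-9-5p, 21.4 and 23.5 for miR-181a-5p, and 21.66 and 23.96 for miR-182-5p.

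Mean lengths of other miRNAs lay closer together. let-7c-5p averaged 22.03 bases in supernatant and 22.00 in cells, let-7b-5p 22.30 and 22.33, and miR-204-5p 22.99 and 22.88, with exact permutation p = 0.3, 0.7 and 0.3. Inserts of 20 bases or fewer were nevertheless 8.66% ± 1.83 of let-7b-5p reads in supernatant and 3.08% ± 0.370 in cells. miR-92a-3p was shorter by less than a base, at 21.81 ± 0.0697 in supernatant and 22.21 ± 0.0113 in cells. miR-21a-5p stood at 22.04 ± 0.157 in supernatant and 22.84 ± 0.0201 in cells. With inserts of 21 to 24 bases alone, 157 of the 177 calls were made in the same direction, and miR-182-5p stood at 0.06 in place of −0.90.

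**Figure D5:**
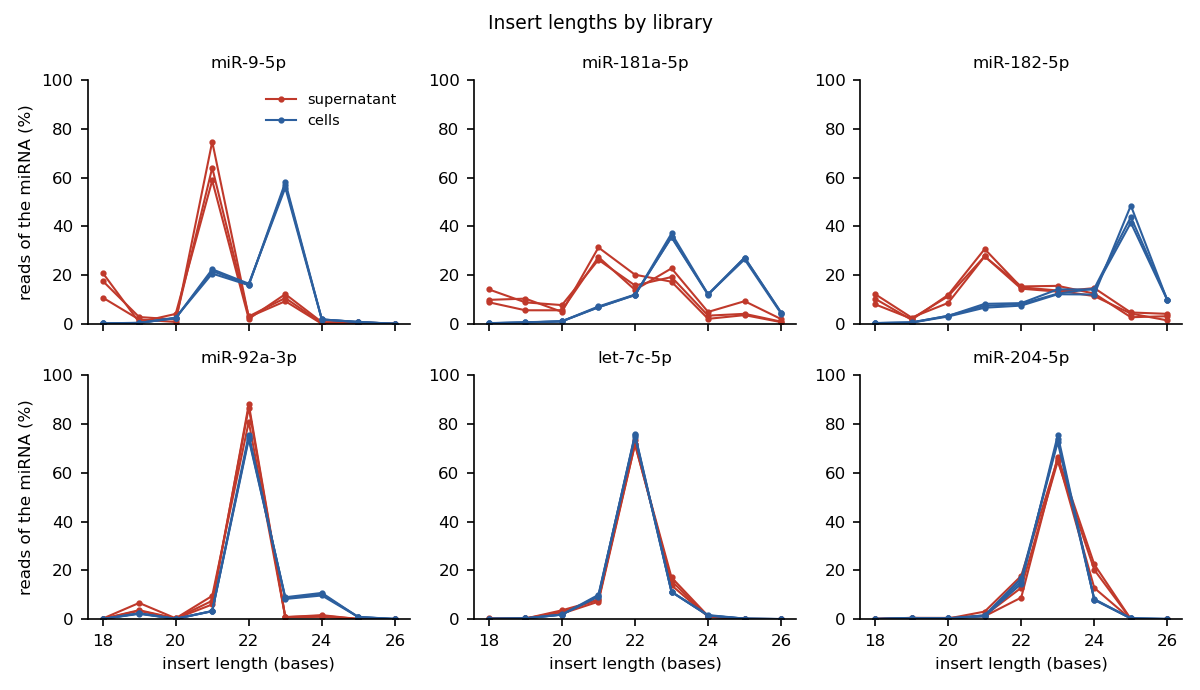
Share of a miRNA's reads (%) at each insert length (bases) in the 3 supernatant libraries (red) and 3 cell libraries (blue) for 6 miRNAs. The peak of miR-9-5p is at 21 bases in supernatant and 23 bases in cells, and let-7c-5p, miR-92a-3p and miR-204-5p peak at the same length in each group.

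The remaining lists were read against the background of 34.2% higher and 38.7% lower. All 4 miR-181 members and all 3 miR-29 members, regulators of immune and matrix genes, were lower, with medians of −1.85 and −2.50. miR-29b-3p and miR-29c-3p rested on 1 and 4 supernatant reads, and the miR-29 median was −3.72 without supernatant replicate 1 and −1.75 without replicate 3. Of the miR-99, miR-100 and miR-125 group 4 of 5 were higher and miR-99a-5p did not pass the test, but scaling to all reads gave 0 higher and 3 lower, no low-count filter gave 1 higher, and leaving out any library other than supernatant replicate 3 gave 3. miR-99b-5p led the group, with 15886, 18561 and 22064 CPM in supernatant, against 5342, 5788 and 5959 CPM in cells, a log2 fold change of 1.98 ± 0.25 (adjusted p = 2.08e-06). In the miR-23, miR-27 and miR-24 group miR-23a-3p was higher (1.30 ± 0.30, with supernatant replicate 3 below the cell libraries), miR-23b-3p lower (−1.85 ± 0.28) and 3 did not pass the test. That rise was lost with inserts of 21 to 24 bases (0 higher and 3 lower in the group) and with scaling to all reads (0 higher and 4 lower). miR-182-5p, miR-183-5p and miR-96-5p of the miR-183 cluster were all lower, with a median of −0.90; without supernatant replicate 1 or cell replicate 2, 2 of them were.

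Among the epithelial markers 1 of 7 was higher and 4 were lower, with a median of −0.55 and a share of 1.19% ± 0.342 of miRNA reads in supernatant. Without supernatant replicate 3, 2 were higher and 3 lower (median −0.20), and without supernatant replicate 1 or cell replicate 1 or 3, 1 was higher and 3 lower. miR-205-5p had 251, 255 and 182 CPM in supernatant, against 61.98, 90.005 and 74.5 CPM in cells, a change of 1.81 ± 0.32. miR-200a-3p had 2791, 3750 and 1599 CPM in supernatant, against 10016, 10881 and 10801 CPM in cells, a change of −1.80 ± 0.29, whereas miR-200c-3p did not pass the test (0.31 ± 0.21, adjusted p = 0.191). Of the 5 stromal markers tested 3 were higher (miR-127-3p, miR-10b-5p and the joint miR-199a-3p and miR-199b-3p) and 2 lower (miR-143-3p and miR-145a-5p), and the list took 2.26% to 3.05% of miRNA reads in supernatant and 4.72% to 4.73% in cells. miR-127-3p rested on 14 reads in supernatant and 6 in cells, and miR-10b-5p on 20 and 19. Scaling to all reads gave 1 higher and 2 lower. With the supernatant and cell libraries fitted alone, or with inserts of 21 to 24 bases, 3 were higher and 1 lower.

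The medium held calf serum, and a calf miRNA with the same sequence as its mouse counterpart cannot be told apart from it in these reads. Of the 13 miRNAs listed for blood, endothelium, liver and serum, 10 were tested, of which 3 were higher and 1 (miR-15a-5p) lower. Of these 10, 6 had at most 2 reads over supernatant and cells and passed the filter through the exosome libraries; with the supernatant and cell libraries fitted alone, 1 was higher and 1 lower. Without supernatant replicate 1 the count was 2 higher and 0 lower, and without replicate 3 it was 3 and 0. The list took 0.592% to 1.06% of miRNA reads in supernatant and 0.468% to 0.521% in cells, where most of it was miR-16-5p. miR-486-5p with 954 reads and miR-16-5p with 634 reads made up most of it over the supernatant libraries. miR-122-5p, a liver miRNA carried in serum, had 66.1, 136 and 26.004 CPM in supernatant (15 reads), against 7.997, 2.50 and 5.59 CPM in cells (8 reads). miR-451a, the third of those called higher, rested on 2 reads in supernatant and 0 in cells, under the floor of 3 reads. miR-144-3p, miR-144-5p, miR-126a-3p and miR-126a-5p were at 0 in supernatant and in cells, and miR-223-3p had 0 reads in either. Their part in the rises above was not tested.

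The study looked for miRNAs that act on the progesterone receptor. Of 14 candidates listed from general knowledge of that receptor, 13 were tested, of which 1 was higher in supernatant (miR-23a-3p) and 9 were lower. Over all tested miRNAs 34.2% were higher and 38.7% lower. The list median was −1.79, against −0.16 over all tested miRNAs. Apart from miR-9-5p, the lower ones were all members of the miR-30, miR-181 and miR-26 families. The count and median therefore rest on few families, and a link to the receptor was not tested. Without supernatant replicate 1 or 3, 2 were higher and 9 lower. They took 9.11% ± 2.07 of miRNA reads in supernatant and 31.2% ± 0.622 in cells (SD, n = 3 each), and most of the share in cells was miR-30a-5p, miR-9-5p and miR-181a-5p. miR-26a-5p had 1997, 1748 and 988 CPM in supernatant, against 7094, 7870 and 6592 CPM in cells, a log2 fold change of −2.01 ± 0.21. miR-126a-3p was at 0 in supernatant and cells, although it counts among the 13 tested. miR-378a-3p did not pass the test (−0.31 ± 0.19, adjusted p = 0.135). Of 9 miRNAs with known roles in tumours, 2 were higher in supernatant (miR-204-5p and miR-10a-5p) and 4 lower (miR-21a-5p, miR-9-5p, miR-31-5p and miR-222-3p). Beside the 34.2% higher and 38.7% lower over all tested miRNAs, this count is not read as a trait of the list. miR-31-5p had 648, 831 and 364 CPM in supernatant, against 4734, 4708 and 4616 CPM in cells, a log2 fold change of −2.77 ± 0.23. The list's count rested on single libraries: without supernatant replicate 3 it was 4 higher and 4 lower, and its median turned to 0.40 from −0.35, while without supernatant replicate 1 it was 2 higher and 5 lower (median −1.20). Without supernatant replicate 2 the median was 0.058, and with scaling to all reads 1 was higher and 6 lower.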

How the data were processed

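The authors deposited, for each library, distinct insert sequences with a whole-number read count; the values show that adapters had been trimmed and identical reads collapsed. No source used here names the trimming tool. Per the labels' protocols, adapters were ligated to both RNA ends, followed by reverse transcription, PCR and gel selection of miRNA inserts. Counts in 9 libraries were assigned to 1174 named GENCODE M21 hairpins (GRCm38): inserts of 18 to 26 bases, the first 18 matching exactly, uncalled bases taken as matching, and up to 2 differences after them. Arms sharing at least 50% of their reads were merged (6 joint features). Near-identical paralogs are uncertain. Mature sequences are from RefSeq (GRCm38.p6) for 209 of 243 tested miRNAs. CPM is over the miRNA reads of a library.

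The 9 TUBO-derived libraries were fitted in R 4.3.3 with edgeR 4.0.16 (TMM, filterByExpr, robust quasi-likelihood test, Benjamini-Hochberg threshold 0.05), without a replicate block, after the script was tested on simulated data. DESeq2 1.42.0, other scalings, filters, assignments and left-out replicates were alternatives. Single values were compared with exact permutation tests in scipy 1.17.1. Named miRNAs were the 10 of highest mean CPM in each group, the 12 that rose most and 12 that fell most among calls without overlap averaging 100 CPM or more in supernatant or cells, and list members (the 2 to 4 of highest mean CPM, and those at 0 reads); others named were chosen after their values were seen. The members and lists were chosen with earlier results of these data known.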

Additional observations from a re-analysis of the deposited data

Results flagged for a closer look

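Reads outside the miRNA comparison formed most of the supernatant libraries. Reads that matched no annotated mouse RNA in the reference made up 59.2%, 60.65% and 65.1% of all supernatant reads, a mean of 61.6% ± 3.06, against 16.2% ± 0.323 in cells and 30.0% ± 2.26 in exosomes (SD, n = 3 each). The annotation used lacked nuclear tRNA genes and the full ribosomal precursor, no calf sequences were searched, and the source of these reads was not assigned. A single unmatched insert of 25 bases had 3788, 4650 and 3947 reads in supernatant, against 5, 10 and 10 reads in cells.

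Reads of small nuclear RNA, the RNAs of the spliceosome, made up 2.21% ± 0.304 of supernatant reads, above the 0.165% ± 0.00601 of cells and beside 1.49% ± 0.350 in exosomes. These were singled out because they lie outside the main measurement and exceeded the level in cells.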

How the results depend on the processing

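With libraries scaled to all reads, 39 miRNAs were higher and 145 lower (21.2% of calls higher, against 46.9%), and miR-204-5p stood at −0.25, miR-30d-5p at −1.10 and miR-148a-3p at −1.53; that scaling counts the unmatched reads of supernatant in its depth. miR-148a-3p, which did not pass the test as reported, also turned negative with DESeq2 (−0.0588), RLE scaling (−0.0592), no low-count filter (−0.38), no scaling factors (−0.19), the replicate block (−0.0085), without cells replicate 1 (−0.09) and without supernatant replicate 3 (−0.24); leaving out a replicate gave −0.24 to 0.32. miR-30d-5p stood at −0.0102 with no low-count filter, and miR-182-5p at 0.0559 with inserts of 21 to 24 bases; the cause was not tested. Over the abundant and most changed miRNAs and the correlation with G and C content, taken across the alternatives, 567 values stayed the same. A further 8 lost the call, 6 gained it and 12 reversed. A miRNA stayed the same where it kept direction and call, and the correlation, which has no call, where it stayed positive. The most changed miRNAs were picked for being called without overlap in these same libraries, so these counts do not measure how firm the other calls are. Over all 177 calls, 133 were kept in direction with scaling to all reads, the fewest of any alternative. Over all alternatives the count of calls was 163 (whole insert matched) to 213 (no low-count filter), and leaving out a replicate gave 171 to 180.

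The sources do not say whether supernatant and cell libraries of the same number are paired. Deviations from group means correlated at 0.0589, −0.0583 and −0.0889 between libraries of the same number. Between libraries of unlike number the values were −0.0587 to 0.104, so they cannot decide whether libraries were paired. With the replicate block 174 miRNAs were called (83 higher, 91 lower). Values with replicates left out spanned −8.28 to −3.78 for miR-92a-1-5p, −8.19 to −3.69 for miR-29b-3p, −8.13 to −3.63 for miR-190a-5p, −8.19 to −2.72 for miR-141-5p and 5.42 to 8.23 for miR-3470b-5p, which rest on few reads. The correlation with G and C content lay between 0.459 and 0.553 over all alternatives, and was 0.474 without miRNAs found in 10 or more other genes, a check added after seeing the data. Supernatant depth of 58940 to 76911 miRNA reads limits what can be seen below 14.2 CPM in that group.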

Other observations

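Other RNA classes moved in different directions between the fractions. Mitochondrial RNA made up 0.0172% ± 0.00859 of reads in supernatant and 0.857% ± 0.0359 in cells (SD, n = 3 each). Small nucleolar and Cajal body RNAs, which guide the modification of ribosomal and spliceosomal RNA, made up 0.485% ± 0.239 in supernatant and 1.69% ± 0.0892 in cells. Reads matching the ribosomal RNA of the annotation made up 0.715% ± 0.207 in supernatant and 1.97% ± 0.0790 in cells. The annotation lacked the full ribosomal precursor, so other ribosomal reads may lie among the unmatched ones. The direction of this class need not be that of all ribosomal RNA. Y RNA, a component of Ro particles that is often found in vesicles, made up 0.111% ± 0.0441 in supernatant and 0.0535% ± 0.00283 in cells, beside 0.514% ± 0.128 in exosomes. Fragments of mRNA made up 2.30% ± 0.296 in supernatant and 1.36% ± 0.0898 in cells.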
